A study of Mus musculus with 29 samples.

Results

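Meiotic arrest of the mouse oocyte and its release rest on a small set of genes, and 8 of them are described here across the growth, maturation and fertilisation of oocytes with and without the G-quadruplex helicase gene Dhx36. The members were chosen by name: Gpr3, Adcy3, Pde3a, Wee2, Pkmyt1, Cdc25a, Cdc25b and Cdc14b, 8 of the 49997 genes in the count table. All 8 were among the 21768 genes that passed the filter on low counts, and the lowest count of any member in any library was 44. Poly(A) RNA had been sequenced by Smart-seq2, a full-length method for very small samples, from 29 tubes of 10 cells each. Controls (WT) carried the floxed allele, Dhx36fl/fl, without Cre, and conditional knockouts (CKO) were Dhx36fl/fl with Zp3-Cre, whose promoter is active in growing oocytes, so that every group compared here shares the floxed background. Growing oocytes came from females aged 2 weeks (GO 2W, 3 WT and 3 CKO libraries). Fully grown oocytes came from females aged 3 weeks (FGO 3W, 2 WT and 2 CKO) or 4 weeks (FGO 4W, 3 WT and 3 CKO). Eggs arrested at metaphase II (MII 3W, 3 WT and 4 CKO) and zygotes (zygote 3W, 3 WT and 3 CKO) were from females aged 3 weeks. No label says that replicate tubes hold cells of different females. A p-value of the main fit reflects how far tubes spread within their groups, estimated over all 10 groups together and not from the groups compared alone.

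As background, a mammalian oocyte waits in prophase of the first meiotic division until the luteinizing hormone surge. The receptor GPR3 signals through the Gs protein to adenylyl cyclases such as ADCY3, which make cyclic AMP (cAMP), and the phosphodiesterase PDE3A breaks cAMP down when arrest ends. High cAMP keeps protein kinase A (PKA) active, which favours the inhibitory kinase WEE2 (also called WEE1B) and restrains the phosphatase CDC25B. WEE2 and PKMYT1 place inhibitory phosphates on the cyclin-dependent kinase CDK1, CDC25A and CDC25B remove them, and CDC14B has been described in mouse oocytes as a phosphatase that holds back resumption through the anaphase-promoting complex (APC/C).

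DHX36 unwinds G-quadruplexes, structures that stretches of guanine can fold into, and the letters of the members were therefore searched for a motif made of 4 G runs, each 3 or more bases long, separated by 1 to 7 other bases. Of the longest coding transcript of each member in the GENCODE annotation of GRCm38, 4 of 8 held 1 motif on the sense strand and 4 held none (Adcy3, Pde3a, Wee2 and Cdc25b). Among the longest transcripts of 14753 tested genes 20.1% held a motif. The 4 motifs are shown, 5′ to 3′, with each run of G in capitals, because they are the only stretches of these transcripts with that pattern. They lie in the coding sequence of Gpr3 (chr4:133210856-133210878, minus strand), the 5′ UTR of Pkmyt1 (chr17:23726387-23726413, plus strand), the 3′ UTR of Cdc25a (chr9:109893231-109893259, plus strand) and the 5′ UTR of Cdc14b (chr13:64274824-64274849, minus strand).
Gpr3: GGGtGGGtgccctGGGcctGGGG
Pkmyt1: GGGGGcGGGaccacGGGcgagcctGGG
Cdc25a: GGGtGGGcacccaaGGGtgagcaGGGGGG
Cdc14b: GGGGcccccGGGtcgcGGGcggcGGG

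The 250 bases before each start listed in the RefSeq promoter table of GRCm38.p6 were read for the 6 members it lists, all but Pde3a and Pkmyt1. Adcy3 and Cdc14b have a further window. The windows of Adcy3, Wee2 and Cdc25b and the Cdc14b window at chr13:64248539-64248788 lie inside the gene spans given below, and that of Cdc25a does so in part. They precede a start within the gene rather than its first base. A motif on either strand was found for Gpr3 and Cdc25b and not for Adcy3, Wee2, Cdc25a and Cdc14b, where 16.7% of 32851 windows of that length held it on either strand and 9.1% on the sense strand. The windows of Gpr3 and Cdc25b are shown as those with a motif. Both genes were called lower at GO 2W below, although the Cdc25b call was lost with 23 of 29 libraries left out in turn. Cdc25b was called higher at MII 3W. Cdc14b, without a motif in its windows but with 1 in its transcript, was called lower from FGO 4W on. A link between motif and genotype change was not tested. In the Gpr3 window (chr4:133212537-133212786, minus strand) the motif on the sense strand spans bases 21 to 2 before the start. In the Cdc25b window (chr2:131186698-131186947, plus strand) a motif on the sense strand spans bases 178 to 159 before the start and another on the opposite strand, seen here as runs of C, spans bases 62 to 44. Capitals mark the motifs.
Gpr3: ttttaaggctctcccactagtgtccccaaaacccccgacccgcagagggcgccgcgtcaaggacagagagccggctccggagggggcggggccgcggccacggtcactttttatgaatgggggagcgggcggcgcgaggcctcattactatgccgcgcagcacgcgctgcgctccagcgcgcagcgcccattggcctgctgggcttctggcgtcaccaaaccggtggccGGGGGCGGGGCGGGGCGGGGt
Cdc25b: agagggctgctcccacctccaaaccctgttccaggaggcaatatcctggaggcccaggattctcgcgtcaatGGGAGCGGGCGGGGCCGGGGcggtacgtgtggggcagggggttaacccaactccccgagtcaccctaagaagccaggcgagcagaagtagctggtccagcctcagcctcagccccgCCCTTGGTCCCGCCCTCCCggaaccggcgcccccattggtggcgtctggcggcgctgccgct
A match is a description of the letters and says nothing of folding or binding.

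Library totals ran from 17697507 to 49104313 counts. The count of the 18S ribosomal RNA gene Rn18s-rs5 took 1.61 to 6.81% of the counts in 26 libraries and more in 3, namely 8.43% in CKO MII 3W replicate 2, 21.9% in CKO MII 3W replicate 3 and 27.3% in CKO zygote 3W replicate 1. Where a genotype call of a member, or a named call of a list gene, rests on these 3, values without them are given as well. Whole-gene Dhx36 was not called lower in CKO at any stage and was called higher at MII 3W by 1.79 on the log2 scale (edgeR adjusted p 0.00197), with group means of 25.1 to 412 CPM in WT and 33.1 to 1426 CPM in CKO. The CKO MII 3W libraries were uneven, at 3226, 660, 1478 and 338 CPM from replicate 1 to 4, against 397 to 429 CPM in WT. Replicate 4 lay below every WT library. The labels do not name the deleted exons, so these counts do not check the genotypes. All 8 oocyte markers searched (among them Gdf9, Bmp15 and Zp3) had counts in every group. The 9 granulosa and cumulus markers summed to 45.2 to 65.5 CPM in WT and 80.6 to 108 CPM in CKO at GO 2W, to 52.6 and 57.0 CPM in WT and 101 CPM in both CKO libraries at FGO 3W, to 41.8 to 50.1 and 59.3 to 78.5 CPM at FGO 4W, and to 50.0 to 57.5 and 75.1 to 157 CPM in zygotes. These sums did not overlap between genotypes, while those at MII 3W did (138 to 150 CPM in WT, 87.9 to 155 in CKO). Most of the sum was Cyp19a1 (27.1 to 140 CPM). Kitl had counts in every library (4.35 to 17.5 CPM) and Fshr in all but 2 (up to 32.1 CPM), while Amh and Foxl2 were at 0 in 21 and 19 of 29 libraries. The part of these markers in the results was not tested. Of 6 sperm markers, Tnp1 and Smcp were at 0 in all 29 libraries, and Prm1 and Tnp2 in 21 and 23. Prm2 (0.376 to 8.88 CPM) and Odf1 (0.353 to 2.54 CPM) had counts in every library, those of oocytes included.

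Levels are given below as CPM, counts scaled to library size and TMM factors, and changes as log2 of CKO over WT with the standard error (SE). A member is called when edgeR's quasi-likelihood test, with Benjamini-Hochberg adjustment over all 21768 genes, gives an adjusted p under 0.05. CPM are shares of the poly(A) RNA captured, and without spike-in counts they do not give amounts per cell. In tubes of 10 cells a lower or higher level can reflect the RNA per cell, the number of cells with the RNA or a change in the other RNA captured. These cannot be told apart. Scaling to total counts in place of TMM would move every gene's CKO over WT change by 0.17, 0.265, 0.19, 0.19 and -0.14 on the log2 scale at the 5 stages in the order above, and by -0.61 for WT MII 3W against either fully grown group.

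The question asked first was which members differed between genotypes at each stage. At GO 2W 2 of 8 members were called, both lower in CKO, where 13.7% of all tested genes were called in either direction. At FGO 3W 2 members were called lower (17.8% of all genes called), at FGO 4W 3 lower and 1 higher (26.6%), at MII 3W 3 lower and 1 higher (32.9%), and at zygote 3W 2 lower and 1 higher (27.0%). In the same order 6.38, 9.62, 14.8, 14.7 and 12.5% of all genes were called lower and 7.34, 8.19, 11.8, 18.2 and 14.5% higher. The members' shares of 2 to 4 in 8 thus stood near or somewhat above those of all genes. Libraries of the 2 genotypes did not overlap in CPM for 3, 5, 5, 6 and 4 members at the 5 stages in that order, beside 44.0%, 69.0%, 46.7%, 37.5% and 30.3% of all genes. Without the 3 libraries rich in 18S counts the MII 3W changes, as log2 of CKO over WT, were -0.89 for Gpr3, -0.57 for Adcy3, 0.23 for Pde3a, -0.48 for Wee2, -0.35 for Pkmyt1, -0.49 for Cdc25a, 0.80 for Cdc25b and -0.995 for Cdc14b, with the same 4 members called. Averaged over the 5 stages, 5 members were called (47.9% of all genes, 23.6% lower and 24.4% higher): Gpr3, Wee2, Cdc25b and Cdc14b were lower and Pde3a was higher.

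**Figure D1:**
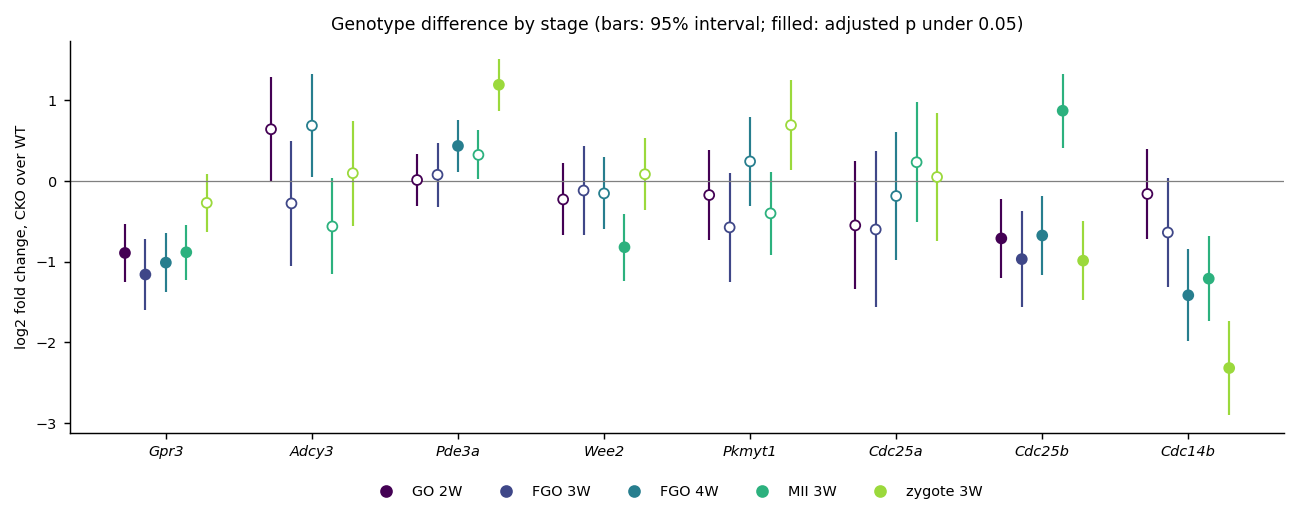
Log2 fold change of CKO over WT for each of the 8 genes (x axis) at the 5 stages (colours), with 95% intervals as bars and filled points where the adjusted p is under 0.05. Gpr3 lies below 0 at GO 2W to MII 3W by 0.88 to 1.16, Cdc14b runs from -0.16 at GO 2W to -2.32 at zygote 3W, and Cdc25b is below 0 at every stage except MII 3W (0.87).

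Gpr3, the receptor that drives cAMP production, was called lower in CKO at 4 of 5 stages: from growing oocytes to metaphase II its fitted level was 0.45 to 0.54 of that in WT. At GO 2W the WT libraries had 106, 95.9 and 89.2 CPM and the CKO libraries 49.0, 53.4 and 54.5 CPM. Every CKO library lay below every WT library. The change was -0.89 (SE 0.18, edgeR adjusted p 0.00103). At FGO 3W the levels were 99.8 and 122 CPM in WT and 54.8 and 44.7 CPM in CKO (-1.16, SE 0.22, edgeR adjusted p 0.00046). At FGO 4W they were 121, 94.9 and 106 CPM in WT and 50.5, 51.2 and 58.3 CPM in CKO (-1.01, SE 0.18, edgeR adjusted p 0.000106). The genotypes were again apart in both fully grown groups, and the CKO libraries of all 3 oocyte groups before maturation fell in the narrow range of 44.7 to 58.3 CPM. At MII 3W the WT libraries had 146, 143 and 157 CPM and the CKO libraries 80.7, 104, 59.4 and 78.2 CPM (-0.88, SE 0.17, edgeR adjusted p 0.000123). These 4 calls were kept under every alternative and with any single library left out, as was the mean over 5 stages of -0.84 (SE 0.082, edgeR adjusted p 2.25e-09).

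In zygotes the Gpr3 levels overlapped. WT libraries had 120, 122 and 102 CPM and CKO libraries 122, 85.1 and 78.7 CPM, a change of -0.27 (SE 0.18, edgeR adjusted p 0.27) whose 95% interval ran from -0.63 to 0.09. The CKO library at 122 CPM was replicate 1, with 27.3% 18S counts. Without it the change was -0.56 (edgeR adjusted p 0.0203), and without the 3 libraries rich in 18S counts also -0.56 (edgeR adjusted p 0.00271). The difference between the zygote and MII 3W changes was 0.61 (SE 0.24) and was not called (edgeR adjusted p 0.0851). The step of Gpr3 from fully grown to metaphase II oocytes differed between the fits. In CPM it was higher at MII 3W than at FGO 4W by 0.47 in WT and 0.60 in CKO (edgeR adjusted p 0.0278 and 0.00351) and than at FGO 3W by 0.70 in CKO (0.0035), but with limma on log2(FPKM + 1) these differences were -0.13, -0.030 and -0.0033 (limma adjusted p 0.594, 0.894 and 0.994). Leaving out single libraries ended the WT call in 12 of 29 cases and the CKO calls only without CKO MII 3W replicate 2 (0.37 against FGO 4W and 0.43 against FGO 3W) or, against FGO 3W, without CKO FGO 3W replicate 2 (0.55).

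Adcy3, the adenylyl cyclase gene downstream of the receptor, had few counts, at 1.95 to 8.37 CPM over all libraries. No genotype difference was called for it at any stage, with changes from -0.56 at MII 3W (95% interval -1.16 to 0.03) to 0.69 at FGO 4W (0.04 to 1.33). The FGO 4W libraries did not overlap, at 3.54, 2.56 and 3.60 CPM in WT and 4.62, 7.19 and 3.78 CPM in CKO, and DESeq2 and both limma fits called that change (DESeq2 adjusted p 0.0434). In WT the CPM were higher at MII 3W (8.37, 6.0 and 7.66 CPM) than at FGO 4W, by 1.18 (SE 0.31, edgeR adjusted p 0.00233). They were lower in WT zygotes than at MII 3W, by -1.02 (SE 0.31, edgeR adjusted p 0.0128). Neither of these stage calls held with limma on log2(FPKM + 1), and the second was also lost without WT MII 3W replicate 1 or WT zygote 3W replicate 1 or 3. In CKO the step from FGO 4W to MII 3W was -0.065 and was not called, and the difference between genotypes in this step was called at -1.25 (SE 0.43, edgeR adjusted p 0.0414). That call was lost with 12 of 29 libraries left out, one at a time, and also with no low-count filter and with the replicate block.

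Pde3a, which encodes the enzyme that breaks down oocyte cAMP, was called higher in CKO at FGO 4W and, by more, in zygotes. Zygote 3W libraries had 154, 192 and 130 CPM in WT and 281, 372 and 433 CPM in CKO, with the genotypes apart. The change was 1.19 (SE 0.16, edgeR adjusted p 2.95e-06) and was called under all alternatives and with any library left out, at 1.27 without the 3 rich libraries. At GO 2W (142 to 183 CPM in WT, 153 to 171 in CKO) and FGO 3W (151 to 193 and 175 to 187) the libraries overlapped and the changes were 0.012 and 0.077. At FGO 4W levels of 135, 123 and 130 CPM in WT and 195, 166 and 164 CPM in CKO gave a change of 0.43 (SE 0.16, edgeR adjusted p 0.0429). That call is weak, since it was lost without any 1 of 10 libraries, the 6 FGO 4W libraries among them (0.35 to 0.48). At MII 3W all 4 CKO libraries (438 to 512 CPM) lay above the WT libraries (343 to 434 CPM), with a change of 0.32 (SE 0.15) that edgeR did not call (adjusted p 0.0984) and limma on log2(FPKM + 1) did (0.50, adjusted p 0.0228).

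Across stages, the highest group mean of Pde3a was that of MII 3W in both genotypes. In WT it was higher at MII 3W than at FGO 4W by 1.56 (SE 0.16, edgeR adjusted p 3.31e-09) and lower in zygotes than at MII 3W by -1.27 (SE 0.16, edgeR adjusted p 3.59e-07). In CKO it was higher at MII 3W than at FGO 4W by 1.45 (SE 0.15, edgeR adjusted p 5.25e-09), while the fall to the zygote was -0.40 (SE 0.15) and was not called (edgeR adjusted p 0.0535). The difference between the genotypes in the step from MII 3W to zygote was 0.87 (SE 0.22, edgeR adjusted p 0.00608). Limma on FPKM did not call it.

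**Figure D2:**
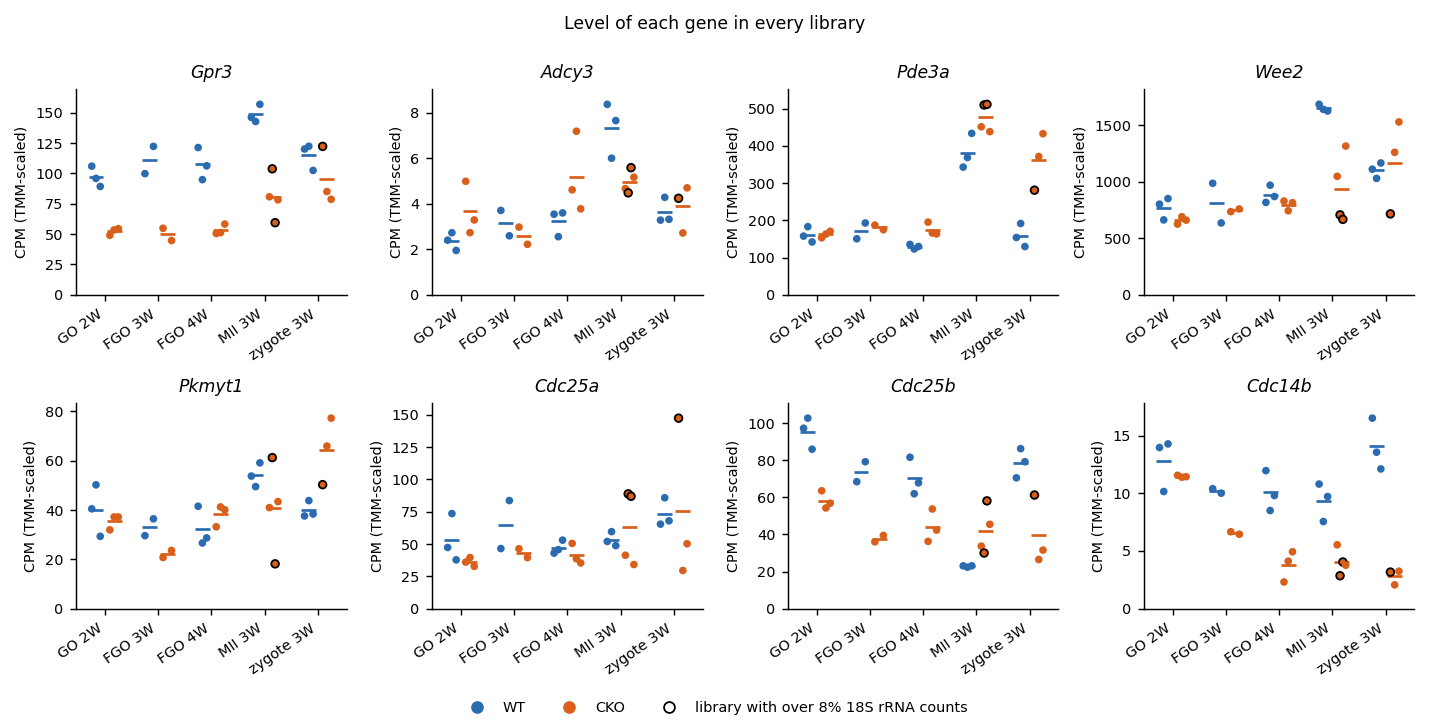
CPM of each gene in every library (points), by stage on the x axis, with WT in blue, CKO in orange, a short line at the group mean and a black ring around the 3 libraries with over 8% 18S ribosomal RNA counts. Gpr3 of CKO oocytes stays between 44.7 and 58.3 CPM before maturation, and Cdc25b of WT oocytes drops to 22.3 to 23.1 CPM at MII 3W alone.

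Wee2, the oocyte kinase that inhibits CDK1 and is also needed to leave metaphase II at fertilisation, was the most abundant member per length. At MII 3W the WT libraries were tightly grouped at 1687, 1643 and 1628 CPM, and the CKO libraries were lower and spread out at 1049, 708, 668 and 1317 CPM. The change was -0.82 (SE 0.20, edgeR adjusted p 0.0023). The CKO libraries at 708 and 668 CPM were replicates 2 and 3, which are rich in 18S counts. Without the 3 rich libraries the change was -0.48 and was still called (edgeR adjusted p 0.00719). At the other stages the genotypes overlapped. The changes there were -0.23 at GO 2W, -0.12 and -0.15 in the fully grown groups of 3 and 4 weeks and 0.084 in zygotes, and the last 3 had the opposite sign with limma on log2(FPKM + 1) (0.18, 0.035 and -0.12). The zygote libraries had 1112, 1031 and 1168 CPM in WT and 717, 1262 and 1531 CPM in CKO, and the library at 717 CPM was again the one with 27.3% 18S counts. Without the 3 rich libraries the zygote change was 0.27 (edgeR adjusted p 0.112). The mean over 5 stages of -0.25 (edgeR adjusted p 0.0446) was lost in 22 of 29 fits without a library and was -0.11 without the 3 rich libraries (edgeR adjusted p 0.127).

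In WT, Wee2 was higher at MII 3W than at FGO 4W by 0.90 (SE 0.22, edgeR adjusted p 0.00102) and lower in zygotes than at MII 3W by -0.58 (SE 0.22, edgeR adjusted p 0.0394), 2 calls that limma on FPKM did not make. The second was also lost when any of the 6 libraries compared was left out, and ran from -0.59 to -0.50 over all left-out libraries. In CKO neither step was called. The genotypes differed in the step from MII 3W to zygote by 0.90 (SE 0.30, edgeR adjusted p 0.0373). That call was ended by 10 of 29 left-out libraries and by both limma fits.

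Pkmyt1, which encodes the membrane-bound inhibitory kinase, was not called between genotypes at any stage in the main fit. Its libraries were apart at FGO 3W (29.6 and 36.4 CPM in WT, 20.8 and 23.6 CPM in CKO, a change of -0.57) and at zygote 3W. The zygote libraries had 37.6, 43.8 and 38.4 CPM in WT and 50.3, 65.9 and 77.3 CPM in CKO, a change of 0.69 (SE 0.27) with an adjusted p of 0.0582 in edgeR and 0.0251 in DESeq2. Without CKO zygote 3W replicate 1 it was 0.77 (edgeR adjusted p 0.0481), and without CKO MII 3W replicate 3 it was 0.65 (0.0238). Without the 3 libraries rich in 18S counts it was 0.77 and was called (edgeR adjusted p 0.004). At MII 3W the 4 CKO libraries ran from 18.2 to 61.3 CPM, on both sides of the WT libraries (49.5 to 59.1 CPM). The change there was -0.40 and, without CKO MII 3W replicate 2, -0.65 (edgeR adjusted p 0.0478). The genotype change differed between zygote 3W and MII 3W by 1.09 (SE 0.37, edgeR adjusted p 0.0427). That call was ended by 15 of 29 left-out libraries, by both limma fits and by the replicate block.

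Cdc25b, the phosphatase gene required for mouse oocytes to resume meiosis, showed a change of direction across stages. CKO libraries were below all WT libraries at GO 2W (63.5, 54.3 and 56.8 against 97.3, 103 and 86.0 CPM), FGO 3W (36.0 and 39.5 against 68.4 and 79.2 CPM) and FGO 4W (36.3, 53.7 and 42.4 against 81.6, 61.9 and 67.8 CPM). The changes were -0.71 (SE 0.24), -0.97 (SE 0.29) and -0.67 (SE 0.24), with edgeR adjusted p of 0.0452, 0.0208 and 0.0362. These calls sit near the threshold. They were lost with 23, 7 and 15 of 29 libraries left out in turn (the 7 being all 4 FGO 3W libraries and the 3 WT MII 3W libraries), where the adjusted p reached 0.138, 0.154 and 0.146. The GO 2W call was also lost with RLE size factors, both limma fits and the replicate block, the FGO 4W call with these and DESeq2, and the FGO 3W call with limma on log2(FPKM + 0.1). Their direction was the same in every such fit. At zygote 3W levels of 70.5, 86.3 and 79.2 CPM in WT and 61.3, 26.5 and 31.6 CPM in CKO gave a change of -0.99 (SE 0.24, edgeR adjusted p 0.00276), which was -1.51 without CKO replicate 1 and was not called in a fit of the zygotes alone (edgeR adjusted p 0.0838).

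At MII 3W the order of the genotypes for Cdc25b was reversed. The WT libraries had 23.1, 22.3 and 23.1 CPM, the lowest group of this gene, and the CKO libraries 33.7, 29.98, 58.1 and 45.4 CPM. All 4 CKO libraries were above all WT libraries. The change was 0.87 (SE 0.22, edgeR adjusted p 0.00391), was called under all alternatives and with any library left out, and was 0.80 without the 3 libraries rich in 18S counts. In WT the level fell from FGO 3W to MII 3W by 1.69 (SE 0.27, edgeR adjusted p 4.09e-06) and from FGO 4W by 1.62 (SE 0.24, edgeR adjusted p 2.04e-06), and it was higher again in zygotes by 1.78 (SE 0.24, edgeR adjusted p 1.31e-06). In CKO the corresponding steps were 0.15, -0.080 and -0.073 and were not called. With limma on log2(FPKM + 1) the first of these was -0.53 (limma adjusted p 0.039) and the second -0.65 (limma adjusted p 0.00473), both called lower. The genotypes differed in the 3 steps by 1.84 (SE 0.37), 1.55 (SE 0.33) and -1.86 (SE 0.33), with edgeR adjusted p of 0.00106, 0.00139 and 0.000252, and these 3 calls held under every alternative and with any library left out.

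Cdc25a, a second phosphatase gene that acts on CDK1 in oocytes, was the member that varied most between libraries of a group, with a within-group SD of 0.54 in log2 CPM where the 8 members ranged upward from 0.19 (Pde3a). No genotype change was called. The changes were -0.55, -0.60, -0.19, 0.23 and 0.050 from GO 2W to zygote 3W, all with intervals that include 0. The last rests on a single library. CKO zygotes had 147, 29.5 and 50.2 CPM, against 65.4, 85.8 and 68.0 CPM in WT, and the library at 147 CPM was the one with 27.3% 18S counts. Without it the change was -0.94 and was called (edgeR adjusted p 0.0425), as it was without the 3 rich libraries (-0.94, edgeR adjusted p 0.00822). At MII 3W the CKO libraries rich in 18S counts had 88.8 and 87.0 CPM and the other two 41.3 and 34.1 CPM, against 48.8 to 59.6 CPM in WT. Without the 3 rich libraries the MII 3W change was -0.49 (edgeR adjusted p 0.178) and the mean over 5 stages was -0.52 (0.000451), against -0.21 with them (0.355).

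**Figure D3:**
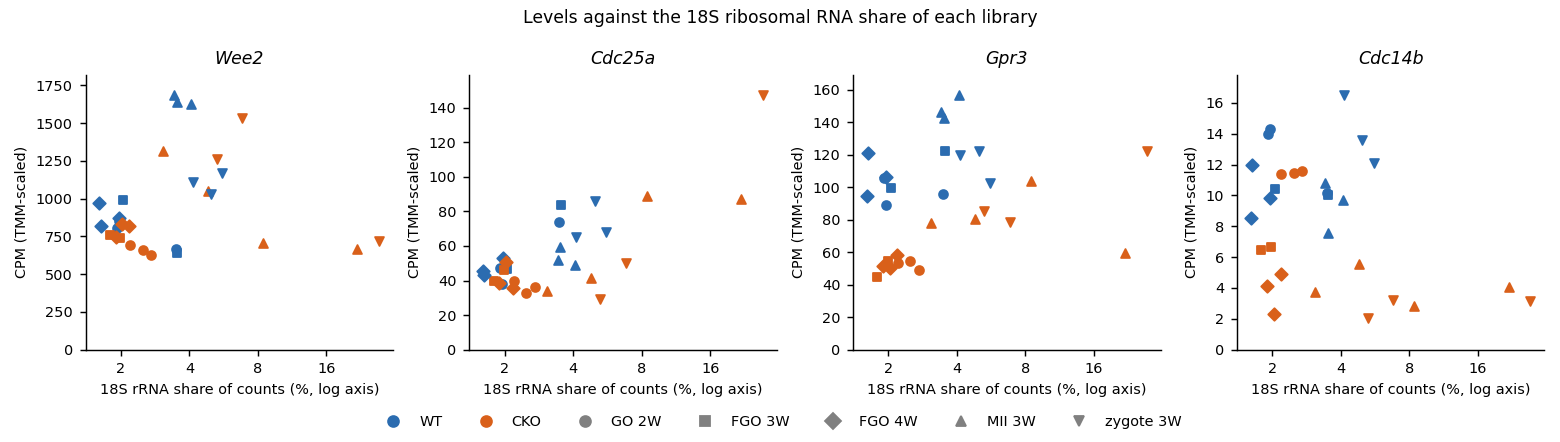
CPM of Wee2, Cdc25a, Gpr3 and Cdc14b in each library against the library's share of 18S ribosomal RNA counts (log axis, percent), with colour for genotype and symbol for stage. The 3 libraries above 8% have 668 to 717 CPM of Wee2 and 87.0 to 147 CPM of Cdc25a.

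The 18S share and the members moved together to unequal degrees. Over the 29 libraries, as deviations of log2 values from their group means, the Pearson r with the share was -0.88 for Wee2, 0.87 for Cdc25a, 0.64 for Cdc25b, -0.45 for Pkmyt1, 0.205 for Adcy3, 0.13 for Gpr3, -0.0081 for Pde3a and -0.016 for Cdc14b. Over the 26 libraries without the 3 rich ones it was -0.65 for Wee2, 0.72 for Cdc25a, 0.13 for Cdc25b, 0.38 for Pkmyt1 (a change of sign), 0.14 for Adcy3, 0.15 for Gpr3, 0.47 for Pde3a and -0.041 for Cdc14b. The libraries of a group share their stage and genotype but differ in depth, and these values describe the libraries only. The part of the 18S share in the changes of Wee2 and Cdc25a was not tested beyond the values given without the rich libraries.

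Cdc14b, the phosphatase gene described as opposing resumption, showed the largest genotype difference of the 8 members. The libraries overlapped at GO 2W (13.97, 10.2 and 14.3 CPM in WT, 11.6, 11.4 and 11.4 CPM in CKO, a change of -0.16). At FGO 3W they did not (10.4 and 10.0 against 6.66 and 6.45 CPM), but the change of -0.64 was not called (edgeR adjusted p 0.197). From FGO 4W on, the fitted CKO level was 0.20 to 0.43 of that in WT. FGO 4W had 11.96, 8.50 and 9.81 CPM in WT and 2.31, 4.11 and 4.93 CPM in CKO (-1.42, SE 0.28, edgeR adjusted p 0.000414). MII 3W had 10.8, 7.55 and 9.72 CPM in WT and 5.53, 2.85, 4.04 and 3.76 CPM in CKO (-1.21, SE 0.26, edgeR adjusted p 0.000551). In zygotes WT had 16.5, 13.6 and 12.1 CPM and CKO 3.17, 2.06 and 3.24 CPM (-2.32, SE 0.28, edgeR adjusted p 1.11e-06), 4.98-fold lower. These 3 calls were kept under all alternatives and with any library left out, and the zygote change was -2.47 without the 3 rich libraries.

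Across stages, Cdc14b fell within CKO from GO 2W to FGO 4W by 1.60 (SE 0.28, edgeR adjusted p 0.000205), while the same step in WT was -0.34 and was not called. The genotype change differed between those stages by -1.26 (SE 0.39) with an edgeR adjusted p of 0.056, so the difference itself was not called. It was called between zygote 3W and MII 3W at -1.11 (SE 0.38, edgeR adjusted p 0.0493), a value at the threshold. That call was ended by 19 of 29 left-out libraries, RLE size factors, no low-count filter and the replicate block.

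Taking the steps between stages over all 8 members, no member was called in WT from GO 2W to FGO 4W or from FGO 3W to FGO 4W, where 2.47% and 0.579% of all genes were called. From FGO 3W to MII 3W 3 members were higher in WT (Adcy3 by 1.22, Pde3a by 1.15 and Wee2 by 1.02) and Cdc25b was lower, where 48.3% of all genes were called, and from FGO 4W Gpr3 and Pkmyt1 (0.75) were called higher as well (52.1%). The Adcy3 and Wee2 calls against FGO 3W were lost without WT FGO 3W replicate 2 (0.97 and 0.73), and the Pkmyt1 call without WT FGO 4W replicate 2 or 3 or WT MII 3W replicate 1 or 3 (0.62 to 0.97 over all left-out libraries). Both limma fits on FPKM also lost these Adcy3, Wee2 and Pkmyt1 calls. From MII 3W to zygote 3 were lower and Cdc25b was higher (34.0%). In CKO 1 member was called from GO 2W to FGO 4W (17.1%), 0 from FGO 3W to FGO 4W (6.89%), 5 from FGO 3W to MII 3W (50.1%), 2 from FGO 4W to MII 3W (56.1%) and 0 from MII 3W to zygote (22.2%). The 5 were Gpr3 (0.70), Adcy3 (0.93), Pde3a (1.40) and Pkmyt1 (0.89), higher, and Cdc14b (-0.70), lower. Of these Adcy3, Pkmyt1 and Cdc14b lost the call without 9, 3 and 6 of 29 libraries, in each case including both CKO FGO 3W libraries. Without the 3 libraries rich in 18S counts Gpr3 (0.56), Pde3a (1.18) and Pkmyt1 (0.81) kept the call, and Adcy3 (0.80, edgeR adjusted p 0.0845) and Cdc14b (-0.61, edgeR adjusted p 0.108) did not. Both limma fits on FPKM lost the Gpr3, Adcy3 and Pkmyt1 calls of this step. Age and stage cannot be told apart where the ages differ. The genotype change itself was compared between stages 40 times over the 8 members, and 8 differences were called: 1 for MII 3W against FGO 3W (14.7% of all genes called), 2 for MII 3W against FGO 4W (17.7%), 5 for zygote 3W against MII 3W (15.7%) and 0 for FGO 4W against GO 2W (5.37%) or FGO 3W (2.72%).

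The order of the members by level was read from the deposited FPKM, which divide by gene length. Wee2 was highest and Gpr3 second in all 10 groups, with Wee2 at 228 to 347 FPKM and Gpr3 at 49.3 to 56.4 FPKM in WT groups and 30.2 to 37.4 FPKM in CKO groups. The Gpr3 means of the 5 WT groups differed by less than the range of libraries within FGO 3W (48.1 to 64.7 FPKM). Pde3a, Pkmyt1, Cdc25a and Cdc25b lay between 4.43 and 28.9 FPKM, and their neighbouring means often overlapped in range. Cdc25b led these 4 in WT growing, fully grown and zygote groups at 20.1 to 28.9 FPKM and was the lowest of them in WT MII 3W at 4.43 FPKM. Adcy3 and Cdc14b were lowest in every group, at 0.522 to 1.28 and 0.30 to 1.79 FPKM. Cdc14b was above Adcy3 in the 5 WT groups except MII 3W and below it in CKO from FGO 4W on.

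**Figure D4:**
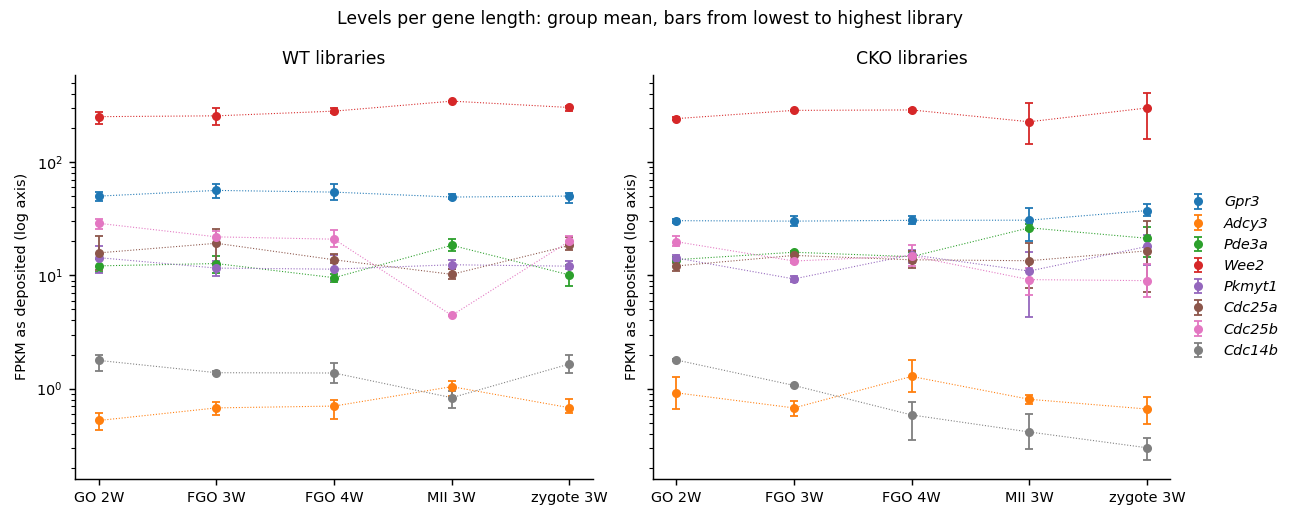
Deposited FPKM (log axis) of the 8 genes by stage in WT (left) and CKO libraries (right), as group means with bars from the lowest to the highest library and dotted lines joining the stages as a guide. Wee2 and Gpr3 stand apart above the rest, Cdc25b falls to 4.43 FPKM in WT MII 3W, and Cdc14b declines to 0.30 FPKM in CKO zygotes.

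Other genes of the same pathway were counted from 3 lists. The list named after cAMP and PKA signalling held 18 further genes, with the meiosis regulator Marf1 and the gap junction gene Gja4 counted among them. Of these 18 genes, 1 was higher and 1 lower at GO 2W, 3 and 1 at FGO 3W, 3 and 2 at FGO 4W, 6 and 4 at MII 3W, and 3 and 4 at zygote 3W, with list medians of -0.21, -0.32, -0.013, 0.32 and 0.076. Over all fits, single left-out libraries aside, the number called lower ran from 1 to 4, 1 to 5, 2 to 3, 2 to 4 and 0 to 5. The medians over all tested genes were -0.013, -0.054, -5.58e-06, 0.13 and 0.078 in the same order. Of all tested genes 7.34, 8.19, 11.8, 18.2 and 14.5% were called higher and 6.38, 9.62, 14.8, 14.7 and 12.5% lower at these stages. Prkacb, a catalytic subunit gene of PKA, was higher in CKO at all 5 stages, by 0.79, 0.92, 1.53, 1.33 and 1.72 (largest edgeR adjusted p 0.0194). Pde3b, a relative of Pde3a, was lower at GO 2W and FGO 3W by 0.84 and 1.15 (edgeR adjusted p 0.0111 and 0.00402). Prkar2a, a regulatory subunit gene of PKA, was lower at FGO 4W (-0.86) and higher at MII 3W (1.11) and zygote 3W (0.95). Gnas, which encodes the Gs alpha subunit that receptors such as GPR3 act through, was lower at FGO 4W and zygote 3W by 1.17 and 0.94 (edgeR adjusted p 0.00211 and 0.011). Pde4d, another cAMP phosphodiesterase gene, was lower at MII 3W and zygote 3W by 1.39 and 0.80 (edgeR adjusted p 9.68e-07 and 0.00285), and Prkar1a, a further regulatory subunit gene, by 0.57 and 0.69. Marf1, a meiosis regulator of the oocyte, was higher at FGO 3W, FGO 4W and MII 3W by 0.67, 0.64 and 0.70.

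Of 23 other genes around the CDK1 switch, 0 were higher and 2 lower at GO 2W, 1 and 5 at FGO 3W, 0 and 7 at FGO 4W, 2 and 16 at MII 3W, and 1 and 6 at zygote 3W, with list medians of -0.18, -0.24, -0.25, -0.58 and -0.27. The list's count of lower calls ran over all fits from 0 to 8 at GO 2W, 3 to 8 at FGO 3W, 3 to 10 at FGO 4W, 8 to 17 at MII 3W and 3 to 11 in zygotes. The 8 at GO 2W came from a fit of that stage alone, and 6 were called there without the 3 rich libraries. Of all genes 6.38, 9.62, 14.8, 14.7 and 12.5% were called lower from GO 2W to zygote 3W. With limma on log2(FPKM + 1) 8 of the list were called lower at MII 3W, and without the 3 libraries rich in 18S counts 12 were. Without those libraries 11 of the list were lower in zygotes. Bora, whose product helps Aurora A activate PLK1, was lower from GO 2W to zygote 3W by 0.46, 1.07, 1.56, 1.13 and 1.12. Aurka, the Aurora A gene, was lower at the same 5 stages by 0.60, 0.70, 0.47, 1.01 and 0.81, and the PP2A scaffold gene Ppp2r1a at FGO 3W, FGO 4W and MII 3W by 0.89, 1.12 and 1.19. Plk1, whose kinase product activates CDC25 phosphatases, was lower at FGO 4W by 0.35 and at MII 3W by 1.06 (edgeR adjusted p 0.029 and 2.59e-08). Ensa, whose product inhibits PP2A, was higher at MII 3W by 1.39 (edgeR adjusted p 3.55e-07). Cks1b, a CDK subunit gene, was lower at FGO 3W and MII 3W by 0.88 and 0.42, and Ccnb3, cyclin B3, at FGO 4W and MII 3W by 1.42 and 1.37. Cdk1 itself was lower in CKO zygotes by 2.52 (SE 0.27, edgeR adjusted p 2.77e-07), with mean levels of 17.2 CPM in CKO and 97.8 CPM in WT, and higher at MII 3W by 1.25 (SE 0.27, edgeR adjusted p 0.000918), where both were low (8.85 and 3.70 CPM).

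Of 17 genes of the APC/C, its activators and its inhibitors, 0 were higher and 1 lower at GO 2W, 0 and 5 at FGO 3W, 1 and 4 at FGO 4W, 4 and 7 at MII 3W, and 4 and 4 at zygote 3W, with list medians of -0.28, -0.25, -0.35, -0.063 and 0.22. Of all genes 7.34, 8.19, 11.8, 18.2 and 14.5% were called higher and 6.38, 9.62, 14.8, 14.7 and 12.5% lower at these stages. Without the 3 rich libraries 4 of the list were higher and 2 lower at MII 3W, and with limma on log2(FPKM + 1) 4 and 3 were. At GO 2W 1 was higher and 7 lower in a fit of that stage alone and 1 and 5 without the rich libraries, and over all fits the number lower ran from 3 to 6 in each fully grown group and from 1 to 4 in zygotes. Cdc20, the activator used in metaphase, was lower at FGO 3W, FGO 4W and MII 3W by 1.47, 1.15 and 0.99. Fzr1, which encodes the activator CDH1 of prophase arrest, was higher at MII 3W by 1.74 (edgeR adjusted p 3.27e-06), as was the ubiquitin-conjugating enzyme gene Ube2c by 1.88 (edgeR adjusted p 1.3e-09). Fbxo5, which encodes the inhibitor EMI1, was lower at FGO 3W, FGO 4W and zygote 3W by 1.17, 0.66 and 0.96. Bub1b, a checkpoint kinase gene, was lower from GO 2W to MII 3W by 0.71, 1.07, 0.57 and 0.47 and higher in zygotes by 1.38 (edgeR adjusted p 6.54e-06). Its MII 3W call was lost without the 3 rich libraries (-0.43, edgeR adjusted p 0.0698). The subunit gene Anapc1 was lower at FGO 3W, FGO 4W and MII 3W by 0.62, 0.72 and 0.42 and higher in zygotes by 0.46, and Anapc2 was lower at FGO 3W by 0.72 and higher in zygotes by 1.38. The Anapc1 calls at MII 3W and in zygotes were lost without the 3 rich libraries (-0.28 and 0.295, edgeR adjusted p 0.0912 and 0.0651), and the other named calls of the 3 lists were kept. Over all genes of the 3 lists, named or not, 10 calls at MII 3W were lost and 2 made without these libraries, and in zygotes 2 were lost and 8 made.

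**Figure D5:**
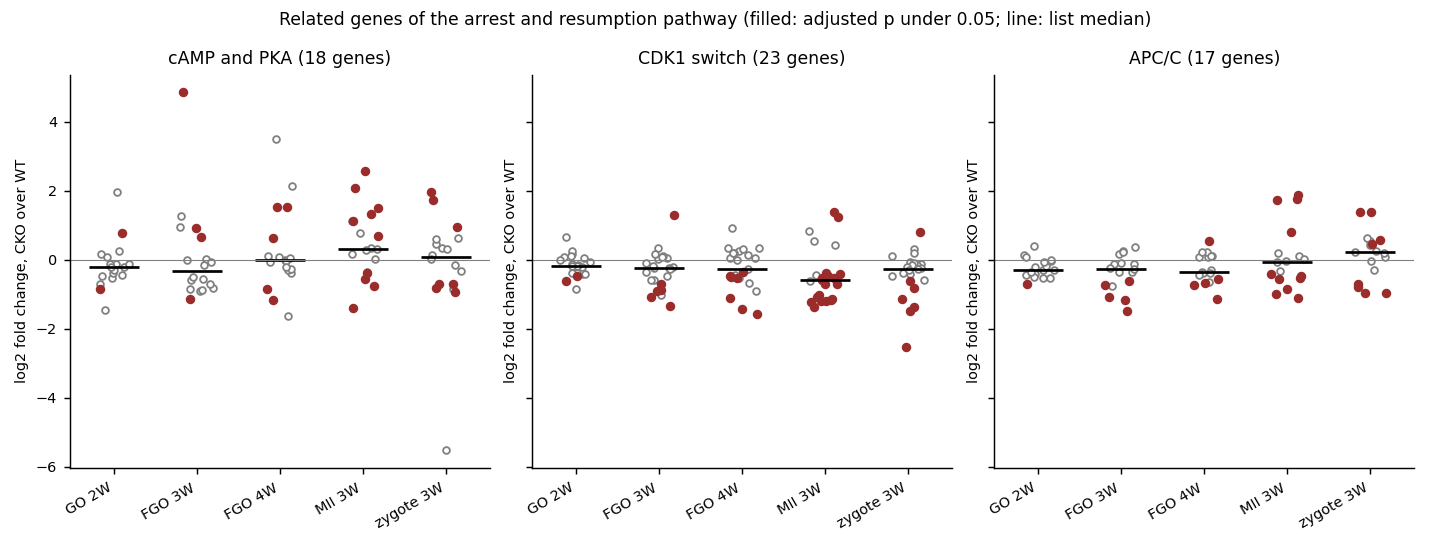
Log2 fold change of CKO over WT for the genes of 3 related lists (panels) by stage, 1 point per gene, filled where the adjusted p is under 0.05, with a line at the list median. The CDK1 switch list has its lowest median, -0.58, at MII 3W.

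The genes most like the members over all 29 libraries were sought among 9116 tested genes with a mean of at least 5 CPM, by Pearson r of log2 CPM. This likeness includes stage, genotype and library depth, which all genes share. For Gpr3 they were Zfp750 (0.94) and Dnase1l3 (0.92), for Pde3a Adam10 (0.98) and Rnf213 (0.95), and for Wee2 Nedd1 (0.95) and Zfp655 (0.95). For Cdc25a they were Kcmf1 (0.92) and Arhgef12 (0.91), and for Cdc14b Tmem168 (0.90) and Slc39a6 (0.89). Adcy3 and Pkmyt1 had no gene as close, with Zfp984 (0.77) and Clcn3 (0.76) for the first and Ptbp1 (0.79) and Arnt (0.79) for the second.

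In GRCm38.p6 the members lie on 7 chromosomes, with Gpr3 at chr4:133209340-133212536, Adcy3 at chr12:4133116-4213525, Pde3a at chr6:141249269-141506862, Wee2 at chr6:40435246-40466815, Pkmyt1 at chr17:23726336-23736735, Cdc25a at chr9:109875518-109893895, Cdc25b at chr2:131186436-131198511 and Cdc14b at chr13:64192545-64274988. Counts were summed over whole genes, so transcript forms of a member were not told apart.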

How the data were processed

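Smart-seq2 libraries of 29 tubes of 10 mouse oocytes or zygotes were grouped by genotype and stage from their labels. Per the submitters' processing notes, Trim Galore, FastQC, HISAT2, SAMtools and featureCounts were used on mm10, with versions, annotation and strand setting not given in the sources used here. The deposited counts are raw counts per gene symbol (49997 genes), and 81% of counts from 1 to 20 are even. The FPKM deposited by the authors equal counts divided by gene length and total counts. The count table holds 0 spike-in rows.

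The fit used edgeR 4.0.16 under R 4.3.3, TMM size factors, filterByExpr by group (minimum count 10, 21768 genes), dispersions following the trend, and quasi-likelihood tests in 1 model of 10 groups (19 residual and 8.308 prior degrees of freedom), with Benjamini-Hochberg adjustment in each contrast at 0.05. The scripts were tested on simulated data. SE came from the same fit, and log2 CPM used a prior count of 2. Alternatives were RLE size factors, no low-count filter, 1 dispersion, DESeq2 1.42.0, limma 3.58.1 on log2(FPKM + 1) and log2(FPKM + 0.1), each stage alone, a replicate block, each library left out and, chosen after seeing the data, leaving out the 3 libraries with over 8% 18S counts. Reads carry no molecular identifiers. Motifs were searched with Python 3.11.15.

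The 8 members, the related lists, the tests and the rule for naming list genes (up to 3 per list and stage with the smallest adjusted p among called genes) were chosen with earlier results of these data known. Protein sequences were not used here. The genes most like Cdc25b are not reported here.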

Additional observations from a re-analysis of the deposited data

Results flagged for a closer look

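The difference in genotype change (log2 of CKO over WT) between stages was tested for every member in edgeR, and 8 of 40 such differences were called. For MII 3W minus FGO 3W, Cdc25b had 1.84 (adjusted p 0.00106). For MII 3W minus FGO 4W, Cdc25b had 1.55 (adjusted p 0.00139) and Adcy3 -1.25 (adjusted p 0.0414). For zygote 3W minus MII 3W, Cdc25b had -1.86 (adjusted p 0.000252), Pde3a 0.87 (adjusted p 0.00608), Wee2 0.90 (adjusted p 0.0373), Pkmyt1 1.09 (adjusted p 0.0427) and Cdc14b -1.11 (adjusted p 0.0493). Without the 3 libraries rich in 18S counts the values of the last step were -2.31 for Cdc25b, 1.05 for Pde3a, 0.75 for Wee2, 1.12 for Pkmyt1 and -1.47 for Cdc14b, all called (largest adjusted p 0.011). Cdc25b then had 1.69 and 1.43 in the steps from FGO 3W and FGO 4W, and Adcy3 -1.30, also called (largest adjusted p 0.0493). Other alternatives ended several of these calls. The Pde3a, Wee2 and Pkmyt1 differences were lost under both limma fits, and that of Pkmyt1 also under the replicate block. Those of Adcy3 and Cdc14b were lost with no low-count filter and under the replicate block, and that of Cdc14b also with RLE size factors. In the group of 4 libraries (CKO MII 3W), a search for a single library far from the rest found 0 among the 8 members. Such a search cannot flag 2 libraries that lie together, as replicates 2 and 3 did for Cdc25a (88.8 and 87.0 CPM, against 41.3 and 34.1 CPM).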

How the results depend on the processing

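Of the 50 called member results, 26 kept their call under every alternative and with any library left out. These include Gpr3 at its 4 stages, Cdc14b at FGO 4W, MII 3W and zygote 3W, Wee2 and Cdc25b at MII 3W and Pde3a at zygote 3W. With RLE size factors 1 member was called at GO 2W in place of 2. Limma on log2(FPKM + 1) called 1 at GO 2W, and 9 stage steps in WT in place of 14. Limma on log2(FPKM + 0.1) called 1 at GO 2W, 1 at FGO 3W in place of 2, 8 stage steps in WT, and 5 differences between stages in place of 8. Without the 3 libraries rich in 18S counts 6 were called at zygote 3W in place of 3. The replicate block called 1 at GO 2W and 2 at FGO 4W in place of 4. Deviations of libraries with the same number correlated at -0.0797 to 0.0392, which gave no sign that the numbers pair the samples. In groups this small the check cannot exclude pairing, and the labels do not state it.

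Signs turned under limma with a pseudocount of 1 and 0.1 for Pkmyt1 at GO 2W (0.022, 0.026) and over the mean of 5 stages (0.075, 0.075), Cdc14b at GO 2W (0.014, 0.026), Wee2 at FGO 3W (0.18, 0.18), FGO 4W (0.035, 0.035) and zygote 3W (-0.12, -0.12), Adcy3 at zygote 3W (-0.019, -0.052) and Cdc25a at zygote 3W (-0.36, -0.40). They also turned for MII 3W against FGO 4W in Gpr3 (-0.13, -0.13 in WT and -0.030, -0.032 in CKO) and, in CKO, for MII 3W against FGO 3W in Gpr3 (-0.0033, -0.0045) and Cdc25b (-0.53, -0.57). Under the replicate block Cdc25a at zygote 3W was -0.28. Without the 3 rich libraries Cdc25a was -0.49 at MII 3W and -0.94 at zygote 3W, Adcy3 -0.036 at zygote 3W, Pkmyt1 0.014 over the mean of 5 stages and Cdc25b -0.058 in CKO for MII 3W against FGO 3W. FPKM are scaled to total counts. Against TMM that scaling moves MII 3W against FGO 4W by -0.607 in WT and -0.602 in CKO, and MII 3W against FGO 3W in CKO by -0.679. The part of this shift in the turned signs was not tested, nor was any other cause.

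With each library left out in turn, the members called ran from 1 to 2 at GO 2W and FGO 3W, 2 to 4 at FGO 4W, 4 to 5 at MII 3W, 3 to 6 at zygote 3W and 4 to 5 over the mean of 5 stages. Stage steps called ran from 10 to 15 in WT and 4 to 10 in CKO, and differences between stages from 4 to 11. The highest counts of 6, 10 and 11 came without CKO zygote 3W replicate 1, and the lowest of 4 stage steps in CKO without CKO FGO 3W replicate 2. Values that crossed 0 were, at GO 2W, Pde3a (-0.070 to 0.11) and Pkmyt1 (-0.36 to 0.021). At FGO 3W they were Adcy3 (-0.52 to 0.033), Pde3a (-0.061 to 0.26) and Wee2 (-0.40 to 0.26). At zygote 3W they were Adcy3 (-0.087 to 0.29), Wee2 (-0.21 to 0.27) and Cdc25a (-0.94 to 0.45), and over the mean of 5 stages Pkmyt1 (-0.079 to 0.033). For Cdc25b they were WT FGO 4W against FGO 3W (-0.23 to 0.028), CKO MII 3W against FGO 3W (-0.17 to 0.20) and FGO 4W (-0.35 to 0.086), CKO zygote 3W against MII 3W (-0.57 to 0.18) and the genotype change of FGO 4W minus GO 2W (-0.13 to 0.16).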
